A study of Triticum aestivum and Zea mays with 29 samples.

Results

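Zm-TS8 and Zm-TS1 are the LbCas12a target sites in the maize genes dwarf4 (Zm00001d028325) and fasciated ear3 (Zm00001d040130). They were taken by name from the deposited table of adenine base editing in maize, and are 2 of its 4 targets, with 7 of its 12 listed adenines. Both lie next to a TTTA motif. A-to-G conversion reached 6.63% at Zm-TS8 and 4.55% at Zm-TS1. The 2 adenines of Zm-TS8 were edited to similar levels. Editing at Zm-TS1 was highest on average at A8, the listed adenine nearest the TTTA motif, and was rarely above 0 at A15. The arm with the highest level was arm 4 at Zm-TS8 and arm 5 at Zm-TS1, and both targets were listed at 0 in arms 1 and 7.

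LbCas12a is a CRISPR nuclease that a short crRNA directs to a protospacer beside a T-rich motif, the PAM. In an adenine base editor (ABE) a nuclease-inactive LbCas12a carries an adenosine deaminase of the TadA family. The deaminase converts adenines of the displaced strand to inosine, which is read as guanine, so that editing appears as A-to-G in the sequence of the protospacer. Fasciated ear3 encodes a leucine-rich repeat receptor that limits the size of the shoot meristem, and the dwarf4 gene is named after a cytochrome P450 of brassinosteroid synthesis known from Arabidopsis.

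Protoplasts, which are plant cells freed of their walls, were prepared from leaves of the maize inbred line B104. The seedlings had germinated in long days and were then kept in the dark until isolation. The protoplasts were transfected with an editor and with crRNAs for all 4 targets together. The editor was coupled to GFP, and amplicons were sequenced from cells sorted for GFP, so the values describe sorted cells rather than all transfected cells. The head of the table names 4 editors: TadA8e on LbCas12a(D832A), TadA8e on LbCas12a(D156R-D832A), TadA9 on LbCas12a(D156R-D832A), and the same TadA9 editor with a 6xGGGGS linker. It also names 2 crRNA designs for each target, one with a tRNA and mature direct repeats behind the TaU3 promoter and one between the HH and HDV ribozymes behind a cauliflower mosaic virus promoter. The columns carry only arm numbers 1 to 7, with 3 replicates each, and the table gives no key from number to editor or crRNA. Arms are therefore called by number, no arm is taken as the control, and architectures are not compared. All 21 columns belong to 1 of the 29 samples of the series.

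The protospacers are shown because the position of each adenine is what the values below are ordered by. The first 4 bases are the PAM, the following 23 are the protospacer, and capitals mark the adenines for which values are listed.
Zm-TS8: tttacatagcactAgcAcctgcttttg
Zm-TS1: tttaacacgggAAAttAcAgcaggaga
Adenines are numbered from 1 at the PAM-adjacent base. At Zm-TS8, A10 and A13 are listed of 5 protospacer adenines, and A2, A4 and A7 are not. At Zm-TS1, A8, A9, A10, A13 and A15 are listed of 10, and A1, A3, A18, A21 and A23 are not. Whether the unlisted adenines were at 0 is not known. The 2 protospacers occupy bases 80 to 102 of a 234-base amplicon (Zm-TS8) and bases 129 to 151 of a 235-base amplicon (Zm-TS1). No maize genome or annotation was used, so chromosome coordinates and the exon or intron of each site are not given.

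The listed adenines differed in their immediate neighbours. With the adenine in the middle, the trinucleotides were TAG at A10 and CAC at A13 of Zm-TS8. At Zm-TS1 they were GAA at A8, AAA at A9, AAT at A10, TAC at A13 and CAG at A15, and A8 to A10 form a run of adenines. A10 and A13 are the 2 positions listed at both targets, in different sequence.

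Of the 147 values of the 2 targets, 84 were above 0: 29 of 42 at Zm-TS8 and 55 of 105 at Zm-TS1. The smallest value above 0 anywhere in the table was 0.2%. A value listed at 0 may therefore lie below a reporting limit, and the read depth behind each percent is unknown, so no counting interval can be given.

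Editing at Zm-TS8 was highest in arm 4, where all values at both adenines exceeded all values of every other arm. A10 was converted at 5.16, 6.63 and 5.88% in arm 4, and A13 at 6.02, 6.58 and 5.34%. In arm 5, A10 had 2.82, 2.48 and 3.24% and A13 had 3.23, 2.73 and 2.96%. Arms 3 and 5 lay close together, at less than the arm 4 level in every replicate. In arm 3, A10 had 2.57, 2.38 and 2.51% and A13 had 2.46, 2.62 and 1.92%. In arm 6, A10 had 2.26, 3.01 and 1.75% and A13 had 2.29, 1.5 and 1.75%. Arms 3 and 6 overlapped at both adenines. In arm 2, A10 had 0.2, 0 and 0.22% and A13 had 0.2, 0.21 and 0.33%, values at or near the smallest in the table.

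Editing at Zm-TS1 was highest at A8 in arm 5, with 4.55, 3.4 and 3.16%. A8 had 3.45, 2.86 and 2.18% in arm 4 and 1.38, 1.99 and 2.67% in arm 6. Neighbouring arms in this order overlapped at A8, from arm 5 down to arm 2. In arm 3, A8 had 0.64, 1.8 and 1.17%, and in arm 2 it had 0.68, 0.48 and 0.5%.

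A10 of Zm-TS1 was the next most edited adenine of the target on average, though by arm means it ranked above A8 in arm 3 and below A9 in arm 6. It had 0.31, 0.35 and 0.51% in arm 2, 0.82, 2.39 and 1.31% in arm 3, and 2.21, 2.12 and 1.93% in arm 4. It then had 2.55, 1.98 and 2.15% in arm 5 and 1.08, 1.08 and 1.89% in arm 6. Arms 3 to 5 overlapped at this adenine.

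A9, the middle of the run of adenines, was edited mainly in arms 5 and 6. It had 1.93, 1.71 and 1.78% in arm 5 and 1.06, 1.54 and 2.38% in arm 6. In arm 4 it had 1.04, 0.9 and 0.48%, below every value of arms 5 and 6. A9 was above 0 in 1 of 3 replicates in each of arms 2 and 3, at 0.21 and 0.67%.

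A13 and A15, the listed adenines of Zm-TS1 farthest from the PAM, were edited least on average. A13 was at 0 in arm 2, ranged from 0.22 to 0.44% in arm 3 and from 0.26 to 0.83% in arm 4, and reached 1.57, 1.44 and 0.61% in arm 5 and 0.67, 1.25 and 1.02% in arm 6. A15 was above 0 in 2 of 21 columns, at 0.27% in arm 5 and 0.34% in arm 6, both in replicate 1.

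Arms 1 and 7 stayed at 0 at every listed adenine of Zm-TS8 and Zm-TS1, in all 3 replicates of each arm. In arm 7 this also held for the adenines of the other 2 targets, so that all 36 values of the arm were 0. In arm 1 the table held 3 values above 0, all at A9 of Zm-TS4, with 0.51, 0.4 and 0.26%. Arm 2 was the lowest arm with editing at either target: 5 of its 6 values at Zm-TS8 and 7 of its 15 values at Zm-TS1 were above 0, none above 0.33% at Zm-TS8 or 0.68% at Zm-TS1.

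The level of a target was taken as the mean over its listed adenines in each column. The order of the arms differed between the targets. At Zm-TS8 the levels were 5.93 ± 0.58% in arm 4, 2.91 ± 0.27% in arm 5, 2.41 ± 0.17% in arm 3, 2.09 ± 0.30% in arm 6 and 0.193 ± 0.085% in arm 2 (SD, n = 3 replicates each). At Zm-TS1 they were 1.81 ± 0.33% in arm 5, 1.24 ± 0.15% in arm 4, 1.22 ± 0.35% in arm 6, 0.652 ± 0.254% in arm 3 and 0.203 ± 0.037% in arm 2 (SD, n = 3). Neighbours in these orders overlapped for arms 3 and 6 at Zm-TS8 and for arms 4 and 6 at Zm-TS1. All other neighbouring arms above 0 were separated in their replicate values. Between any 2 arms, an exact permutation test of 3 against 3 columns cannot give a p below 0.1.

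Across the 7 arms together, the level varied more than the replicates did at both targets. The highest and lowest arm means were 5.93 percentage points apart at Zm-TS8 and 1.81 points apart at Zm-TS1, with a permutation p of 1e-05 for the F ratio at each, which is the smallest that 100000 resamples can give. The lowest means were those of arms 1 and 7, at 0 in every replicate. This test over all arms therefore does not by itself separate arms 2 to 6 from each other. By adenine, 6 of the 7 passed a Benjamini-Hochberg adjusted p of 0.05, beside 91.7% of the 12 adenines of the table. The permutation test gave adjusted p = 2.33e-05 for A10 and A13 of Zm-TS8 and for A8 of Zm-TS1. A13 of Zm-TS1 had the largest adjusted p of those past the threshold, 0.000677. Without replicate 2 the count was 5 of 7, with an adjusted p of 0.0632 for A13 of Zm-TS1 in the permutation test. A15 of Zm-TS1 did not pass, with an adjusted p of 1 in the same permutation test. Since A15 was above 0 in only 2 of 21 columns, no placement of these values over the arms could have passed.

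Averaged over all columns, the adenines of Zm-TS1 were edited in the order A8, A10, A9, A13 and A15, from which single arms departed. Over the 21 columns the means were 1.47% at A8, 1.08% at A10, 0.652% at A9, 0.427% at A13 and 0.029% at A15. In arm 6, A9 averaged 1.66% and A10 1.35%, with A9 higher in replicates 2 and 3 and A10 higher in replicate 1. In arm 3, A13 averaged 0.327% and A9 0.223%, with A13 higher in replicates 1 and 2 and A9 higher in replicate 3. Each of the 10 pairs of adenines of Zm-TS1 passed an exact two-sided sign-flip test over columns. Thus 10 of the 11 pairs within the 2 targets were past the threshold, beside 93.3% of the 15 pairs in the table. Because A15 was above 0 in only 2 of 21 columns, the pairs with A15 mostly count the columns in which the other adenine was above 0. A8 exceeded A9 in 15 of 21 columns and was lower in none, with a mean difference of 0.820 ± 0.867 points (SD; exact sign-flip test, adjusted p = 0.000168). A9 was lower than A10 by 0.43 points on average (A9 minus A10, -0.43 ± 0.68; exact sign-flip test, adjusted p = 0.00722). The 6 columns of arms 1 and 7, in which both adenines are 0, carry no weight in these tests. Replicates of an arm count here as separate columns. With a single value per arm, 0 of the 11 pairs passed, and the sign-flip test could not give an unadjusted p under 0.0625.

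The separations of A8 from A10, of A9 from A10 and of A9 from A13 were less stable. A8 minus A10 averaged 0.392 points (exact sign-flip test, adjusted p = 0.00962), but the adjusted p was 0.0549 without replicate 1, and this was also the value for A9 minus A10. A9 minus A13 averaged 0.226 points (exact sign-flip test, adjusted p = 0.0322), and its adjusted p was 0.0902 to 0.103 when any 1 replicate was left out and 0.366 on a log2 scale.

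The 2 adenines of Zm-TS8 were not separated. A10 and A13 averaged 1.96 and 1.91% over the 21 columns. Their difference was 0.046 ± 0.450 points (SD), with A10 higher in 6 columns, A13 higher in 7 and 8 equal (exact sign-flip test, adjusted p = 0.68). The ratio of A13 to A10 at Zm-TS8, from sums over replicates, was 0.938 in arm 3, 1.02 in arm 4, 1.04 in arm 5 and 0.789 in arm 6. The same ratio at Zm-TS1 was 0.217, 0.227, 0.542 and 0.726 in arms 3, 4, 5 and 6. It was below that of Zm-TS8 in every replicate of arms 3, 4 and 5. In arm 6 the replicates disagreed: in replicate 2 the ratio was 0.498 at Zm-TS8 and 1.16 at Zm-TS1, and without replicate 1 the ratios of sums were 0.683 and 0.764.

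The order of A8 and A10 along Zm-TS1 was not the same in every arm. In arm 3, A10 exceeded A8 in all 3 replicates, and A8 minus A10 averaged -0.303 ± 0.249 points (SD, n = 3). In arms 4, 5 and 6, A8 exceeded A10 in every replicate, by 0.743 ± 0.495, 1.48 ± 0.50 and 0.663 ± 0.321 points (SD, n = 3). Arms can differ in this gap through their level alone, so the share of A8 in the sum of A8 and A10 was tested over the 15 columns of arms 2 to 6, where that sum was above 0. The mean share was 44.7% in arm 3 and 57.1 to 62.3% in the other 4 arms (permutation p = 0.022, adjusted p = 0.0266 over 7 such shares, all chosen after the values were seen). The call was lost when any 1 replicate was left out, with a permutation p of 0.0502, 0.309 and 0.0855 without replicates 1, 2 and 3.

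A9 also stood in a different ratio to A8 in arms 4, 5 and 6. The ratio of A9 to A8 lay between 0.220 and 0.315 in the replicates of arm 4, between 0.424 and 0.563 in arm 5 and between 0.768 and 0.891 in arm 6, and these ranges did not overlap. In arms 2 and 3, where A9 was mostly at 0, it ran from 0 to 0.309 and from 0 to 0.573. As a share of the summed conversion over the 5 adenines, A9 held 13.02% in arm 4, 20.0% in arm 5 and 27.1% in arm 6, and A8 held 45.7, 41.0 and 32.9% in the same arms. The share of A8 in the sum of A8 and A9 differed over arms 2 to 6 with a permutation p of 0.0228 (adjusted p = 0.0266), but without replicates 1 and 2 the permutation p was 0.0968 and 0.262. The share of A10 in the sum of A10 and A13 at Zm-TS8 gave a permutation p of 0.0767, and 0.56 without arm 2, whose values lie near the smallest in the table.

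Zm-TS8 was edited at a higher level than Zm-TS1 when averaged over listed adenines, at 1.93 against 0.732% over the 21 columns. The difference was 1.20 ± 1.63 points (SD), with Zm-TS8 higher in 13 columns, Zm-TS1 higher in 2 and 6 equal at 0 (exact two-sided sign-flip test, p = 0.000305). This difference depends on what is averaged, since Zm-TS1 has 5 listed adenines and Zm-TS8 has 2. With the most edited adenine of each target, A10 of Zm-TS8 and A8 of Zm-TS1, the means were 1.96 and 1.47% and the exact sign-flip p was 0.13. With conversion summed over the listed adenines, the means were 3.87 and 3.66% and the exact sign-flip p was 0.75.

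Compared at the same positions, the targets differed most at A13. A13 averaged 1.91% at Zm-TS8 and 0.427% at Zm-TS1, and was higher at Zm-TS8 in all 15 columns of arms 2 to 6 (difference 1.48 ± 1.90 points, SD; exact sign-flip test, adjusted p = 0.000122 over 2 positions). A10 averaged 1.96% at Zm-TS8 and 1.08% at Zm-TS1, with Zm-TS8 higher in 10 columns and Zm-TS1 higher in 5 (difference 0.878 ± 1.411 points, SD; exact sign-flip test, adjusted p = 0.00446). On a log2 scale the difference at A10 had an exact sign-flip p of 0.136. In arm 2, A10 was lower at Zm-TS8 than at Zm-TS1 in all 3 replicates, whereas A13 was above 0 at Zm-TS8 only. With a single value per arm, 5 arms carry information, no sign-flip p can be below 0.0625, and none of these differences passes.

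The gap between the targets was not the same in every arm. Zm-TS8 minus Zm-TS1 was 4.70 ± 0.60 points in arm 4, 1.76 ± 0.33 in arm 3, 1.10 ± 0.40 in arm 5, 0.870 ± 0.633 in arm 6 and -0.009 ± 0.072 in arm 2 (SD, n = 3). As ratios of mean levels, Zm-TS8 was 4.79 times Zm-TS1 in arm 4 and 3.70 times in arm 3, but 1.61 times in arm 5 and 1.71 times in arm 6. The lowest replicate ratio of levels in arms 3 and 4 was 2.83, above the highest in arms 5 and 6, which was 2.51. At A10 alone these arms overlapped: the ratio ran from 0.996 to 3.13 in arm 3 and from 2.33 to 3.13 in arm 4, and from 1.11 to 1.51 in arm 5 and from 0.926 to 2.79 in arm 6. The share of Zm-TS8 in the summed level of both targets, which a constant ratio would leave equal, was 82.7% in arm 4, 79.0% in arm 3, 63.2% in arm 6, 61.8% in arm 5 and 47.3% in arm 2. It differed over these 5 arms with a permutation p of 0.00076 (adjusted p = 0.00213), 0.0114 without arm 2 and 0.0701 without replicate 2. With A10 and A13 alone at both targets the permutation p was 0.00122 (adjusted p = 0.00213), and 0.0623 without replicate 2. By level, arms 4 and 5 stood in opposite order at the 2 targets. Zm-TS8 had 5.59 to 6.61% in arm 4 and 2.60 to 3.10% in arm 5, and Zm-TS1 had 1.08 to 1.39% in arm 4 and 1.54 to 2.17% in arm 5. At single adenines of Zm-TS1, the replicates of arms 4 and 5 were separated at A9 only.

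Zm-TS8 and Zm-TS1 were both edited less than Zm-TS4, in the transcription factor gene liguleless2. The level of Zm-TS4 was 5.77% over the 21 columns, Zm-TS8 minus Zm-TS4 averaged -3.83 points and Zm-TS1 minus Zm-TS4 averaged -5.04 points, and each target was lower than Zm-TS4 in 18 of 21 columns (exact sign-flip test, adjusted p = 1.53e-05 for both over 4 comparisons). Zm-TS4 was above 0 in arm 1, where Zm-TS8 and Zm-TS1 were not. Its most edited adenine, A9, peaked in arm 4 with a mean of 15.8%.

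Against Zm-TS3, in small kernel 1, the direction turned with the arm. In arm 3 the levels were 2.41% at Zm-TS8 and 0.652% at Zm-TS1, against 0.142% at Zm-TS3. In arm 4, Zm-TS8 exceeded Zm-TS3 by 4.64 ± 0.47 points, whereas Zm-TS1 and Zm-TS3 differed by less than the spread of the replicates (-0.053 ± 0.330 points). In arm 6 the levels were 2.09% at Zm-TS8 and 1.22% at Zm-TS1, against 10.2% at Zm-TS3, whose most edited adenine, A10, peaked there with a mean of 20.0%. Over all columns, Zm-TS8 minus Zm-TS3 was -0.452 points (exact sign-flip test, adjusted p = 0.599) and Zm-TS1 minus Zm-TS3 was -1.65 points (adjusted p = 0.0409). The call for Zm-TS1 was lost when any 1 replicate was left out, with adjusted p of 0.136 to 0.161. The share of each target in its sum with Zm-TS3 differed over arms 2 to 6, with a permutation p of 0.00112 for Zm-TS8 (adjusted p = 0.00213) and 0.00016 for Zm-TS1 (adjusted p = 0.00112). Without replicate 1 the permutation p for Zm-TS8 was 0.0551. Zm-TS3 was above 0 in only 1 of 3 replicates of arm 2 and 2 of 3 of arm 3. Where it was listed at 0 in these arms, both shares were 100%, and a 0 may lie below a reporting limit.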

How the data were processed

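The A-to-G values are percent of reads as the authors deposited them, computed from amplicon reads with CRISPResso2 after demultiplexing with Je, with a minimum average read quality set; tool versions are not given in the sources used here. No count of reads stands beside the percent values, and read depth and counting error are therefore unknown. Counts of reads with a deletion, which the authors deposited for 4 maize libraries not split by index, served only for the values given under results for a closer look, with Wilson intervals at 95% confidence that cover counting error only. PCR reads are not independent molecules.

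Columns were named from the table's header. The paper's figure legends call replicates independent biological replicates. Since crRNAs were delivered together, all targets of a column come from the same cells, and targets and adenines were compared within columns by exact two-sided sign-flip permutation tests of the mean difference. Arms were compared by permuting the F ratio with 100000 resamples. P-values were adjusted by Benjamini-Hochberg within each family. Replicates of an arm enter these sign-flip tests as separate columns. All listed adenines and all arms are named. Members and lists were chosen with earlier results of these data known. Same-position comparisons, tests over arms of the share of a value in the sum of a pair (columns with a sum above 0) and adjustment over the whole table were added after seeing the values.

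Alternatives were the most edited adenine, the sum over adenines, log2(percent + 0.1), a value per arm, the Kruskal-Wallis statistic, a replicate block and leaving out each replicate. The tests were tried on simulated independent normal values. These lack the values at 0 and, for the sign-flip test, the grouping of columns by arm, so the trial does not cover those features. The maize nuclease table carries no target names on its rows and was not used. The software was NumPy 2.4.6 with SciPy 1.17.1, under Python 3.11.15.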

Additional observations from a re-analysis of the deposited data

Results flagged for a closer look

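By tests chosen after the values were seen, the share of one target or adenine in its sum with another differed over arms. These tests used the 15 columns of arms 2 to 6, and their p-values are given here without adjustment. The permutation p was 0.00076 for Zm-TS8 against Zm-TS1 and 0.00122 with A10 and A13 alone, and 0.00112 and 0.00016 for Zm-TS8 and Zm-TS1 against Zm-TS3. Within Zm-TS1 it was 0.022 for A8 against A10 and 0.0228 for A8 against A9. Of these 6 shares, Zm-TS1 against Zm-TS3 alone stayed past the threshold whichever replicate was left out (permutation p = 0.0034 to 0.0176). Which editor or crRNA design each arm held was not tested, since the arms have no key. Groups of 3 replicates were too small for an outlier test.

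Reads with a deletion were counted at both amplicons in 4 maize libraries that the comparisons did not use. They are listed only because their counts are above 0: at this depth almost any count passes the limit that a count of 0 allows, neither a control nor a sequencing error rate was set beside them, and the labels do not give their arms. Amplicon 8, named for the crRNA oligo that carries the Zm-TS8 protospacer, had a deletion in 0.0115% of reads in library 1 (95% Wilson interval 0.00884 to 0.0150%), 0.0149% in library 2 (0.0120 to 0.0186%), 0.0559% in library 3 (0.0497 to 0.0629%) and 0.00321% in library 4 (0.00206 to 0.00501%). Amplicon 1, named likewise for Zm-TS1, had a deletion in 0.0367% of reads in library 1 (95% Wilson interval 0.0317 to 0.0426%), 0.0344% in library 2 (0.0298 to 0.0397%), 0.0445% in library 3 (0.0390 to 0.0508%) and 0.0231% in library 4 (0.0194 to 0.0275%). The share was lower at amplicon 8 than at amplicon 1 in libraries 1, 2 and 4 and higher in library 3, with intervals that did not overlap in libraries 1, 2 and 4.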

How the results depend on the processing

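Of 159 alternative values, 118 kept their direction and their side of the threshold or, for counts, stayed near the main count, and 3 reversed. The rest lost the threshold or, for 1 count, moved away from the main count. Spreads over arms cannot be negative and could not reverse. With a single value per arm, few arms carry information: Zm-TS8 minus Zm-TS1 stayed at 1.20 points (exact p = 0.125), Zm-TS8 and Zm-TS1 minus Zm-TS4 at -3.83 and -5.04 (adjusted p = 0.0624 each), Zm-TS1 minus Zm-TS3 at -1.65 (adjusted p = 0.584), and 0 of 11 adenine pairs passed by the exact sign-flip test, where an unadjusted p under 0.0625 could not be reached. Zm-TS8 minus Zm-TS1 was 0.486 points with the most edited adenine (exact p = 0.13) and 0.209 with the sum (exact p = 0.75), and 1.17 to 1.24 without any 1 replicate. On a log2 scale Zm-TS1 minus Zm-TS3 was -0.21, and Zm-TS8 minus Zm-TS3 turned to 0.55 with neither value past the threshold. A10 minus A13 of Zm-TS8 turned to -0.052 on that scale and ranged from -0.024 to 0.154 points without any 1 replicate. Zm-TS1 minus Zm-TS3 was -1.76 to -1.57 points without any 1 replicate. The cause was not tested. The count of adenine pairs past the threshold was 7 to 9 without any 1 replicate, and that of adenines differing over arms was 5 or 6.

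Deviations from arm means correlated above 0.1 in 6 of 15 pairs of arms, with r of -0.570 to 0.381. At 3 replicates per arm, these correlations cannot show whether replicate numbers pair the columns. With the replicate number as a block, the spread over arms stayed at 5.93 points for Zm-TS8 (permutation p = 1e-05) and 1.81 for Zm-TS1 (permutation p = 3e-05), and 6 of 7 adenines passed. The planned comparison of indel rates between the 2 targets was not run because rows of the nuclease table are not named by target. Read depth per column is unknown, so the error of values near 0.2% cannot be stated.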

Other observations

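In the same 4 maize libraries not split by index, the deposited share of reads with any modification was 10.99, 8.42, 4.71 and 5.21% at amplicon 8 and 9.77, 11.67, 5.41 and 5.45% at amplicon 1 in libraries 1, 2, 3 and 4, from 468471 to 591831 reads at amplicon 8 and 473486 to 549815 at amplicon 1. Of the modified reads, 99.1 to 99.95% held a substitution of any kind, so the values are not A-to-G conversion, and no comparison was made with them.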
